A study of Drosophila melanogaster with 2 samples.

Results

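Peaks of the tagged zinc finger protein BuGZ that lay between genes, away from any promoter, made up 264 of the 2413 reproducible peaks (10.9%, 95% Wilson interval 9.76 to 12.2). A peak was taken as distal intergenic when its summit was more than 250 bp from every annotated transcription start site (TSS) and inside no annotated transcript. The other reproducible peaks included 1357 promoter peaks, with a summit within 250 bp of a TSS, and 687 intronic peaks. The libraries came from whole embryos aged 0 to 16 h, both sexes pooled, of a transgenic line that stably expressed BuGZ (CG17912) fused to GFP at its C terminus. There was 1 group of 2 replicates, with no untagged or untreated group, so no test between samples was possible and all tests below treat peaks as units. The sample descriptions call the libraries input controls, whereas the antibody label and the parent files point to immunoprecipitates set against a separate control, and this is unsettled. Read depth was unknown here, so intervals cover counting error over regions only, and signal values are the authors' own, used to rank regions within a list. All embryonic cell types were pooled in each library, and a site in few cells and a weak site in many cannot be told apart.

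BuGZ is a zinc finger protein best known from mitosis, where it binds the checkpoint protein Bub3 and loads it on kinetochores. Intergenic DNA in the fly holds enhancers and insulators, the latter being elements that separate regulatory neighbourhoods and are bound by zinc finger proteins such as CTCF and Su(Hw) and by BEAF-32. CTCF recognises a GC-rich core through a subset of its zinc fingers. Promoters of broadly active fly genes carry instead the DNA replication-related element (DRE) and the core promoter elements named Ohler motifs, while TATA boxes mark many tissue-restricted genes.

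The CTCF core AGNNGGCGC, in which N is any base, was more frequent in the distal intergenic peaks than in each of the 3 comparison classes, and the following copies show it. They come from the strongest peak with a core (near jp), a peak with 2 copies facing away from each other (near Sox21a), the peak with most copies (3, near dco) and a peak with a copy at the summit itself (near eIF2beta). Each sequence is the dm6 reference, 41 bases centred on the core, written 5′ to 3′ on the strand that carries the core, with the core in capitals.
jp, chr2L:9567468-9567508, minus strand: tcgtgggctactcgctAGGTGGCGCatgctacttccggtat
Sox21a, chr3L:14111517-14111557, minus strand: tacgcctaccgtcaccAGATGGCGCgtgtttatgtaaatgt
Sox21a, chr3L:14111628-14111668, plus strand: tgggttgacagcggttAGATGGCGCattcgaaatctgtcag
dco, chr3R:31061493-31061533, minus strand: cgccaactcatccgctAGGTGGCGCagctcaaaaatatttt
dco, chr3R:31061530-31061570, plus strand: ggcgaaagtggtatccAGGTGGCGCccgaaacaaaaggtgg
dco, chr3R:31061549-31061589, plus strand: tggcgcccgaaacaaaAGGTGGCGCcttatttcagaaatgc
eIF2beta, chr3L:12527001-12527041, plus strand: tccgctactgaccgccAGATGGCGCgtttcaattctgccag

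Strong peaks without a full core are shown by the 101 bases around the summits near sp3 and CG6966, on the plus strand. The window near sp3 holds the run GGCGCC, which shares 5 letters with the fixed part of the core, and the window near CG6966 holds neither that run nor the core.
sp3, chr3R:21520297-21520397, plus strand: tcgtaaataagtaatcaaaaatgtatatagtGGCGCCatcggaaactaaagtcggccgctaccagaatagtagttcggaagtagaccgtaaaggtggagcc
CG6966, chr3R:15095843-15095943, plus strand: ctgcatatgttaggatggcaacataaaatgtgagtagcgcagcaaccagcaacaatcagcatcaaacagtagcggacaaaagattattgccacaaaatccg

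A core lay within 100 bp of the summit in 41 of the 264 distal intergenic peaks (15.5%, 95% Wilson interval 11.7 to 20.4). The background was 2599 distal intergenic regions from the lower-ranked 50% of the 30000 pooled candidates, and 2.46% of these held a core (odds ratio 7.28, 95% Woolf interval 4.81 to 11.0, Fisher's exact test with Benjamini-Hochberg adjustment over 31 motifs, p = 7.98e-16). It was present in 4.57% of promoter peaks (odds ratio 3.84, adjusted exact p = 3.86e-08) and in 5.24% of intronic peaks (odds ratio 3.32, adjusted p = 2.83e-05). Of the motifs tested, 5 passed the threshold of 0.05 against the background (16.1% of those tested), 5 against promoter peaks (16.1%) and 5 against intronic peaks (16.1%), and CTCF, the DRE and Ohler motif 1 were in all 3 sets. Of these, CTCF was higher in all 3 comparisons, while the DRE and Ohler motif 1 were lower than in promoter peaks. The difference from the background held in all 13 alternatives tried, with odds ratios of 4.34 to 24.1. The 13 counted the same regions beyond 1000 bp of a TSS under a planned and an added setting (odds ratio 8.87 in each). The highest value, 24.1, was against flanking sequence of the same peaks, compared without using that pairing. The odds ratio was 4.51 when the list of replicate 2 alone was used and 8.18 with that of replicate 1 alone. A match to these letters is a description of the sequence and not evidence that CTCF was bound.

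**Figure D1:**
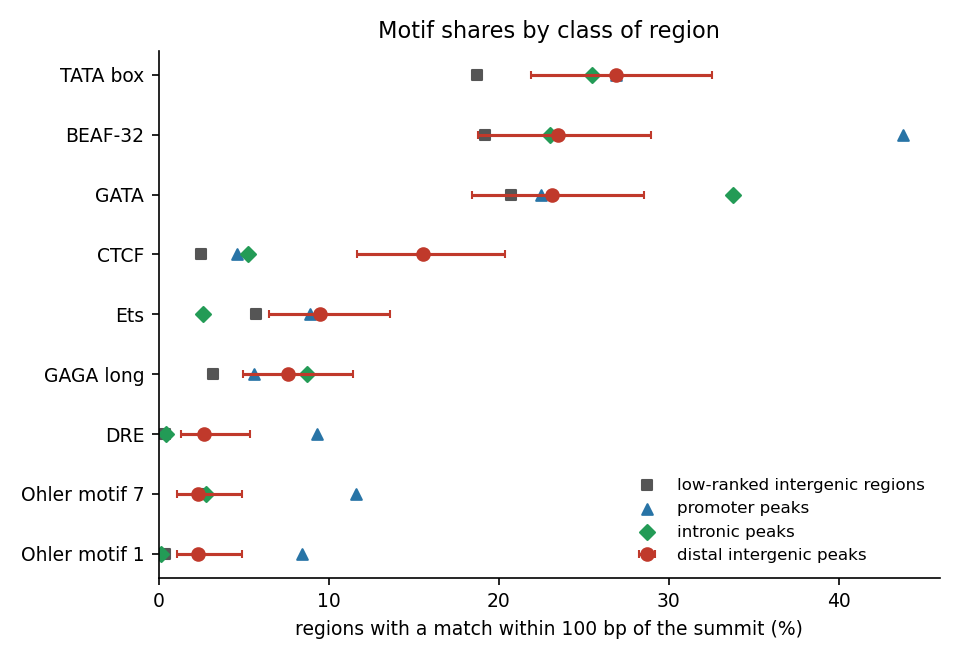
Share of regions with a motif match within 100 bp of the summit (x axis, percent) for the motifs that passed the threshold in at least 1 comparison (y axis). Red circles with 95% Wilson intervals are the distal intergenic peaks, grey squares the low-ranked intergenic background, blue triangles promoter peaks and green diamonds intronic peaks; for CTCF the red circle at 15.5% lies to the right of the other 3 classes.

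More than 1 copy of the core, and AT or GT in place of its NN, were also more frequent in these peaks. The 41 peaks held 52 copies, and 10 peaks held 2 or more (3.79% of the 264), against 0.115% of background regions (odds ratio 34.1, 95% Woolf interval 9.32 to 125, Fisher's exact test p = 8.44e-09), 0.368% of promoter peaks (p = 1.58e-05) and 0.873% of intronic peaks (p = 0.00358). These shares were taken over all regions of a class, so they also reflect how many regions held any core. Among regions with a core, 2 or more copies lay in 10 of 41 distal intergenic peaks and 3 of 64 background regions. They lay in 5 of 62 promoter peaks and 6 of 36 intronic peaks, and these shares were not tested. Over all regions, the odds ratio against the background was 11.7 (exact p = 0.00833) with the list of replicate 2 alone and 45.9 with that of replicate 1 alone. Among regions within 1000 bp of a TSS this difference did not pass the threshold (odds ratio 3.90, exact p = 0.106). The 2 free letters of the core were AT in 20 copies and GT in 19, so that 39 of the 52 copies had either pair, compared with 29.9% of copies in the background (exact p = 1.16e-06), 47.1% in promoter peaks (p = 0.00264) and 53.5% in intronic peaks (p = 0.0328). These letters and copy numbers were chosen for testing after their values were seen, and copies within a peak share their sequence context. AT and GT were picked as the commonest pairs in these same peaks, so the unadjusted p-values for the letters are descriptive only. The median distance from copy to summit was 30.5 bp in the distal intergenic peaks and 34.0 bp in the background, with 46.2% and 38.8% of copies within 25 bp.

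The share of regions with a core was higher in the first 10000 pooled candidates than further down the list, given here as a description. Among distal intergenic candidates outside the reproducible list it was 7.01% for pooled ranks 1 to 5000 (19 of 271), 4.70% for ranks 5001 to 10000 (30 of 638), then 2.55%, 2.63% and 2.96% in the next 3 bands of the same width and 1.84% for ranks 25001 to 30000 (17 of 922). The first band was in effect narrower than the others, since the distal intergenic candidates just below the reproducible list began at pooled rank 2427. The 3 middle bands showed no decline. Within the reproducible list no such order was seen, since 20 of the 41 peaks with a core were among the stronger 132 (48.8%, compared with 50.2% of the others, odds ratio 0.944, 95% Woolf interval 0.485 to 1.84). The core is common in the genome as a string of letters. Distal intergenic sequence of the main chromosomes, 40.7 Mb in all, held 2694 matches, of which 52 (1.93%) lay near a distal intergenic peak summit and 200 (7.42%) near the summit of any pooled candidate. The sequence near distal intergenic peak summits made up 0.125% of the total searched.

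**Figure D2:**
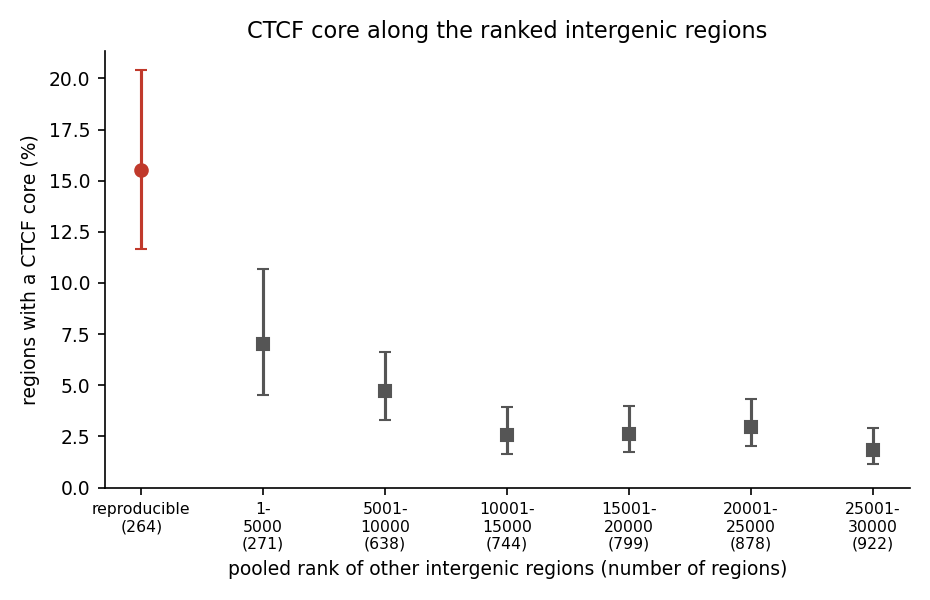
Share of distal intergenic regions with a CTCF core (y axis, percent) in the reproducible peaks (red) and in 6 successive rank bands of the other pooled candidates (grey, x axis, number of regions in parentheses). Bars are 95% Wilson intervals; the share is 15.5% in the reproducible peaks, 7.01% in the first band and 1.84% in the last.

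Peaks with a core ranked higher in replicate 1 than in replicate 2. Of the 41, 39 were among the 2413 strongest regions of replicate 1 (95.1%) and 21 among those of replicate 2 (51.2%), whereas of the 223 peaks without a core 77.1% and 71.7% were. Both contrasts, chosen after seeing the data, passed the threshold (odds ratio 5.78, 95% Woolf interval 1.35 to 24.8, adjusted p = 0.0336 for replicate 1; odds ratio 0.413, 0.210 to 0.815, adjusted p = 0.0489 for replicate 2; Fisher's exact tests adjusted over 6). The median rank of peaks with a core was 914 in replicate 1 and 2239 in replicate 2, and that of peaks without one 1111 and 1518. In promoter and intronic peaks the odds ratios were 1.97 and 3.29 for replicate 1 and 0.718 and 0.495 for replicate 2, with adjusted p of 0.0733 to 0.288. Among those with a core, the peaks near CG13306 (rank 914 in replicate 1 and 26140 in replicate 2), CR31958 (145 and 2428) and lncRNA:CR44282 (991 and 10240) were uneven in this direction. The reason for the unequal ranking was not tested.

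The strongest distal intergenic peaks were near the top of both replicates. The reproducible list was itself derived from both replicates, so this follows in part from how it was selected and ordered. The highest lay 746 bp upstream of jp, which encodes the junctional membrane protein junctophilin, between jp and lncRNA:CR44149 (chr2L:9567372-9567638). Its signal value was 987 in the reproducible list, 555 in replicate 1 (rank 7) and 442 in replicate 2 (rank 5). Next came a peak 581 bp upstream of sp3 (chr3R:21520221-21520490), with signal values of 959 in the reproducible list, 633 in replicate 1 (rank 4) and 323 in replicate 2 (rank 17). Both replicates had these sites among their first 17 regions.

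A peak on chromosome arm 2R, 4727 bp from lncRNA:CR44761 and between it and Ppa, had a signal value of 953, with 495 in replicate 1 (rank 8) and 440 in replicate 2 (rank 6). A weaker peak of signal value 149 lay 1307 bp from it, in the same 11259 bp intergenic interval. The peak 262 bp from CG6966 followed with 672 in the reproducible list, 417 in replicate 1 (rank 13) and 252 in replicate 2 (rank 33). The first 4 peaks differed in their surroundings: those near jp and CG6966 lay in intervals of 1404 and 325 bp, that near sp3 in one of 8113 bp.

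Below these, the list moved through genes of unlike function. The peak near CycB, the gene for the mitotic cyclin B, lay 3349 bp from its TSS in the convergent interval between blw and CycB, with a signal value of 524 and ranks of 37 and 34. A core lay 61 bp from its summit. The peak near CG14762 (signal value 549, ranks 23 and 62) also held a core, 40 bp from the summit. Toll-7, a receptor of the Toll family, had a peak 258 bp from its TSS with a signal value of 492 and ranks of 57 and 43, and Rh5, a blue-sensitive rhodopsin of the eye, 1 at 607 bp with 463 and ranks of 45 and 57. The ranks of these 4 peaks in the replicates all lay within the first 62 regions.

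Among the remaining 17 of the 25 strongest, the peak near CG11349 had a signal value of 451, that near DNAlig3 (a DNA ligase gene) 434 and that near cpo (couch potato, an RNA-binding protein of the nervous system) 433. Zasp52, which encodes a Z-disc protein of muscle, was the nearest gene to a peak of signal value 418 whose closest TSS was 13601 bp away, in a 520 bp interval between the 3′ ends of CG30089 and Zasp52. Sox14, a transcription factor gene of the ecdysone response, had a peak of 396 at 281 bp. On chromosome 4, peaks near zfh2, a zinc finger homeodomain gene, and lncRNA:CR43437 had signal values of 367 and 366. Other peaks in this set were nearest to lncRNA:CR45643, lncRNA:CR45750, Sid, CG34342, CG12617, lncRNA:CR45695, CG8519, lncRNA:CR45693, tRNA:Ala-TGC-2-1 and ph-d, the last a Polycomb group gene, with signal values from 418 down to 296. All 25 were among the 2413 strongest regions of both replicates, the lowest ranks being 371 and 454.

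Replicate support thinned out further down, along an order that was itself derived from both replicates. Of the 50 strongest, 48 were among the 2413 strongest regions of both replicates, of the 100 strongest 89, and of all 264 there were 139 (52.7%, 95% Wilson interval 46.6 to 58.6). In replicate 1 alone a further 72 reached that rank and in replicate 2 alone 42, while 11 did so in neither list, and 258 (97.7%) had a region within 200 bp somewhere in both lists. The share in the top of both was 56.9% for promoter peaks (odds ratio 0.843, 95% Woolf interval 0.647 to 1.10, Fisher's exact test p = 0.222) and 56.5% for intronic peaks (odds ratio 0.857, 0.645 to 1.14, p = 0.308). Taken by replicate, 79.9% of distal intergenic peaks were in the top of replicate 1 and 68.6% in that of replicate 2, against 77.9% and 75.6% of promoter peaks. Only the contrast with promoter peaks in replicate 2 passed the threshold (odds ratio 0.704, 0.528 to 0.938, exact p adjusted over 2 replicates = 0.0409); against intronic peaks in replicate 2 it was 0.717 (0.525 to 0.980, adjusted p = 0.0810). These comparisons by replicate were added after seeing the data. The weakest peaks kept had signal values of 101 to 102, and the first distal intergenic candidates below the list had 100 to 101, for instance 101.0 near tRNA:Met-CAT-1-5.

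**Figure D3:**
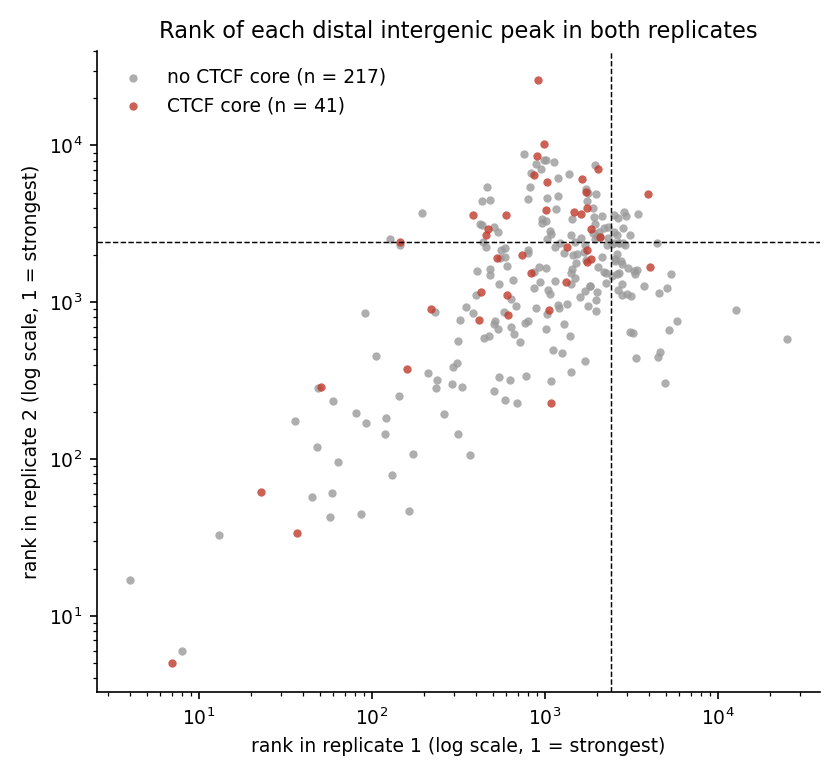
Rank of each distal intergenic peak by signal value in replicate 1 (x axis, log scale) and replicate 2 (y axis, log scale), for the 258 peaks found in both lists. Red points hold a CTCF core and grey points do not, and dashed lines mark rank 2413; the 25 strongest peaks lie toward the lower left, and 20 of the 41 red points lie below and left of both lines.

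The peaks lay closer to transcription start sites than the intergenic background did. Their median distance was 957 bp (interquartile range 467 to 3321), against 2960 bp in the background (1278 to 6306). Of the 264, 133 lay within 1000 bp of a TSS (50.4%), compared with 19.6% of the background (odds ratio 4.16, 95% Woolf interval 3.21 to 5.39, Fisher's exact test p = 9.54e-26) and 37.0% of intronic peaks (odds ratio 1.73, p = 0.000221). There were 74 peaks between 251 and 500 bp, 59 between 501 and 1000 bp, 41 between 1001 and 2000 bp, 50 between 2001 and 5000 bp, 27 between 5001 and 10000 bp and 13 farther out. They also lay in shorter intergenic intervals, of a median of 4366 bp compared with 10579 bp for the background. Chromosome arms held the peaks in the background's proportions, with 0 of 6 arms past the threshold (0 also at an unadjusted p under 0.05).

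**Figure D4:**
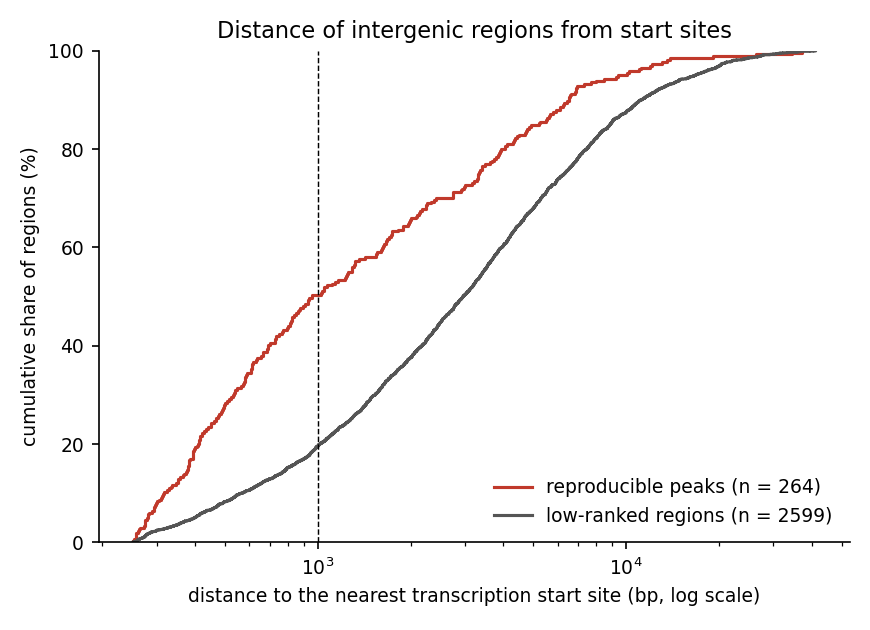
Cumulative share of regions (y axis, percent) by distance to the nearest transcription start site (x axis, bp, log scale) for the 264 distal intergenic peaks (red) and the 2599 low-ranked intergenic background regions (grey). At 1000 bp, marked by the dashed line, the curves stand at 50.4% and 19.6%.

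The distance limit cut through a continuous range. The peaks just outside it lay near Dfd (252 bp, signal value 131), Fancm (254 bp, 102), fkh (257 bp, 250.3), Toll-7 (258 bp, 492) and l(3)73Ah (258 bp, 134). Those just inside, which count as promoter peaks, lay near lobo (249 bp, 156), lncRNA:CR43431 (247 bp, 242), nrv1 (246 bp, 138), CG9743 (246 bp, 145) and CG10947 (245 bp, 209). At the other end, 3 of the 5 most remote peaks lay in a single 75047 bp interval between NijA and CG43245 on 3L, at 37227, 34552 and 19121 bp from the CG43245 TSS. Their signal values were 203, 149 and 113, and their ranks 387, 1393 and 2033 in replicate 1 and 851, 608 and 1689 in replicate 2. The other two of these 5 lay 26304 bp from vvl, a POU homeodomain gene (signal value 112, ranks 2500 and 2394), and 13849 bp from CG10651 (signal value 285, ranks 91 and 858).

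Most peaks were upstream of their nearest TSS, 185 of 264 (70.1%) against 62.2% of the background (odds ratio 1.42, 95% Woolf interval 1.08 to 1.88, Fisher's exact test p = 0.0111). This moved with the distance to the TSS. Within 1000 bp the shares were 89.5% and 90.6% (odds ratio 0.883, exact p = 0.741), and beyond it 50.4% and 55.2% (odds ratio 0.823, p = 0.279). Between divergent genes lay 31.1% of peaks and 25.2% of the background (odds ratio 1.34, adjusted exact p = 0.0687), between convergent genes 16.3% and 22.7% (odds ratio 0.664, adjusted p = 0.0576) and between genes in tandem 52.7% and 52.0% (odds ratio 1.03, 95% Woolf interval 0.796 to 1.32, adjusted p = 0.897). None of the 3 orientations passed the threshold here, though the convergent share passed with the list of replicate 1 alone (odds ratio 0.560, adjusted exact p = 0.00144).

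The peaks tended to have other reproducible peaks nearby. Another reproducible summit lay within 5000 bp of 97 of the 264 (36.7%), against 14.2% of the background (odds ratio 3.50, 95% Woolf interval 2.66 to 4.60, Fisher's exact test p = 2.39e-17). Background regions that touched a reproducible peak had been removed, so they could not have the closest neighbours. The peaks could, as with a summit 199 bp from the one near Atf3, so part of this difference was fixed in advance. The odds ratio was 2.27 among regions within 1000 bp of a TSS and 4.14 beyond. Taking runs of distal intergenic peaks with neighbours within 20000 bp, 185 peaks stood alone, 54 formed 27 pairs, and 25 fell in 7 larger groups.

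The largest groups held 5 peaks each, both on 2L. One spanned 16481 bp beside chinmo, a zinc finger gene of temporal identity in neurons, and ran from lncRNA:CR44603 through lncRNA:CR45695 to chinmo with signal values of 102, 106, 249, 341 and 151. The peak of 341 ranked 119 in replicate 1 and 145 in replicate 2, while the peak of 106 was not found among the candidates of replicate 1. The other spanned 17137 bp around Rh5, from Hacd1 to Wdr81, with 179, 463, 123, 104 and 105. Of these 5, 3 were in the top 2413 of both replicates, led by the peak of 463 near Rh5 (ranks 45 and 57), while that of 179 ranked 421 in replicate 1 and 3135 in replicate 2.

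Groups of 3 lay beside RpS23, CG43245, scyl, tara and in the Enhancer of split complex, which encodes basic helix-loop-helix repressors and Bearded family proteins of the Notch pathway. The peaks in the Enhancer of split complex were nearest to E(spl)malpha-BFM (signal value 108), lncRNA:CR43644 (142) and E(spl)m5-HLH (106), with ranks of 641 to 3246. The group beside tara held the peak near mtSSB (signal value 274, ranks 261 and 195) and a pair near lncRNA:CR45643 (418 and 104).

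The DRE and Ohler motif 1 were more frequent in the distal intergenic peaks than in the background and rarer than in promoter peaks. The DRE, TATCGATA, lay in 7 peaks (2.65%), against 0.385% of the background (odds ratio 7.05, adjusted exact p = 0.00703), 9.29% of promoter peaks (odds ratio 0.266, adjusted p = 0.000890) and 0.437% of intronic peaks (odds ratio 6.21, adjusted p = 0.0396). Ohler motif 1, GGTCACAC, lay in 6 peaks (2.27%), against 0.385%, 8.40% and 0.146% (adjusted p of 0.0130, 0.000992 and 0.0182 by Fisher's exact test). Against intronic peaks neither element passed in any of the 5 alternatives. The peaks near l(3)73Ah, 258 bp from its TSS, and near CG43066, at 497 bp, held both elements, and the others with Ohler motif 1 included those near slp2, a forkhead segmentation gene, and Dfd, a Hox gene. Examples follow in the dm6 reference on the plus strand, with the element in capitals.
l(3)73Ah, DRE, chr3L:16588245-16588284: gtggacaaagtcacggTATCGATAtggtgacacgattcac
l(3)73Ah, Ohler motif 1, chr3L:16588145-16588184: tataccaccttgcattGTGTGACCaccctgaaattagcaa
slp2, Ohler motif 1, chr2L:3832480-3832519: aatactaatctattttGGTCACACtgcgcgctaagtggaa
Dfd, Ohler motif 1, chr3R:6791515-6791554: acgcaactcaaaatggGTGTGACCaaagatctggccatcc

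The other calls were less stable. A TATA box, TATAAA, lay in 26.9% of the peaks and 18.7% of the background (odds ratio 1.60, adjusted exact p = 0.0130), and also in 26.9% of promoter peaks and 25.5% of intronic peaks. The longer GAGA repeat, GAGAGAG, lay in 7.58% of the peaks and 3.16% of the background (odds ratio 2.52, adjusted exact p = 0.0130). This repeat lay in 8.73% of intronic peaks (odds ratio 0.857, adjusted exact p = 0.781). Against promoter peaks its odds ratio was 1.38 (adjusted exact p = 0.449). Neither motif passed against promoter or intronic peaks, so both were called against the background only. Of the 13 alternatives, the TATA box and the longer GAGA repeat each passed in 5, the DRE in 4 and Ohler motif 1 in 2, whereas CTCF passed in 13. When regions within 1000 bp of a TSS were compared with background regions at the same distances, or only peaks in the top of both replicates were used, 1 motif passed, and that was CTCF.

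Against promoter peaks the differences were mostly losses. The BEAF-32 motif CGATA, which the DRE contains, lay in 23.5% of distal intergenic and 43.8% of promoter peaks (odds ratio 0.394, adjusted exact p = 1.01e-08), and Ohler motif 7 in 2.27% and 11.6% (odds ratio 0.178, adjusted p = 2.79e-06). Against intronic peaks, the Ets site CCGGAA was higher, at 9.47% compared with 2.62% (odds ratio 3.89, adjusted exact p = 0.000448), and the GATA motif lower, at 23.1% compared with 33.8% (odds ratio 0.589, adjusted p = 0.0135). The Ets site lay in 8.92% of promoter peaks and 5.69% of the background, and the GATA motif in 22.5% and 20.7%. None of these contrasts passed in the main test, so both motifs were called against intronic peaks only. For Ets against the background the odds ratio was 1.73 (95% Woolf interval 1.11 to 2.70, adjusted exact p = 0.0892). That contrast passed in 2 of 13 alternatives. Ets passed in all 5 alternatives against intronic peaks, and it was present near the summits by jp, CG14762, cpo and Zasp52. Of the other insulator motifs, BEAF-32 stood at 19.2% in the background (odds ratio 1.29, 95% Woolf interval 0.958 to 1.75, adjusted exact p = 0.290). Su(Hw) lay in 3.41% of the peaks and 2.15% of the background (odds ratio 1.60, 95% Woolf interval 0.784 to 3.28, adjusted exact p = 0.404), and neither passed. Zelda, the activator of the early zygotic genome, had its motif CAGGTAG in 1.52% and 1.19% (odds ratio 1.27, 0.446 to 3.64, adjusted exact p = 0.787), and the heat shock element was found in 0 of the 264 (95% Wilson upper limit 1.43%).

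Words of 6 bases within 50 bp of the summit included pieces of the CTCF core. Of 2080 words, 49 passed the threshold against the background (2.36% of those tested), 39 higher and 10 lower in the peaks. The smallest p belonged to GCGCCA, in 16.7% of peaks and 5.46% of the background (odds ratio 3.46, adjusted exact p = 1.94e-06), followed by GGCGCC (8.71% and 2.04%), CGCCAC (13.3% and 4.77%), ATGTAA (14.8% and 6.16%), ATGGCG (12.1% and 4.69%), ACAGTA (7.95% and 2.31%), CACCTA (7.20% and 2.04%), CAAATA (19.3% and 10.04%), GAAGGA (0 peaks and 4.19%) and AAGTTA (10.2% and 3.96%). Of the higher words, 9 shared at least 4 fixed letters with the CTCF core. With every region that matched the core left out, 15 words passed, 13 of them among the 49. Of the first 10 words 5 still passed, with ATGTAA in 15.2% of peaks and 6.19% of the background, CAAATA in 20.6% and 10.06%, ACAGTA in 7.17% and 2.37%, AAGTTA in 9.87% and 3.98%, and GAAGGA in 0 peaks and 4.18%. In that comparison GCGCCA stood at 6.73% and 4.42% (odds ratio 1.56, adjusted exact p = 0.522). With all regions kept, CAAATA lay in 20.2% of intronic peaks and 12.1% of promoter peaks. For ATGTAA these shares were 9.61% and 6.85%, and for ACAGTA 6.26% and 4.35%. Whether words differed from intronic or promoter peaks was not tested. The background was richer in GC than the peaks (medians of 44.8% and 38.8%), and 9 words passed within the interquartile GC band.

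The genes nearest to the peaks were spread over many functions. In all, 249 of 18277 annotated genes (1.36%) were nearest to a peak. Of the peaks, 75.4% were nearest to a protein-coding gene (68.7% of the background) and 20.1% to a non-coding RNA gene (28.6%). A tRNA gene was nearest to 2.65% (1.81% of the background) and a snoRNA gene to 1.14% (0.115%). The snoRNA shares rest on 3 peaks and 3 background regions, and none of these shares was tested. Of the neuronal and glial differentiation list, 4 of 49 genes were nearest to a peak, namely zfh2, D (a Sox gene), ey (the Pax6 eye gene) and vvl, with signal values of 367, 206, 120 and 112. By regions, that list was nearest to 1.52% of the peaks and 1.23% of the background, the segmentation list to 1.14% and 1.27% and the signalling list to 1.14% and 0.616%. Of 32 segmentation genes there were 3, slp2 (230.4), hry, the pair-rule repressor also called hairy (115), and ptc, the Hedgehog receptor (112). Of 50 signalling genes there were 3, Wnt4, ptc and upd2, a ligand of the JAK/STAT pathway, at 129, 112 and 104.

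Other lists gave fewer. Zasp52 and sls, which encodes the titin-like protein of the sarcomere, were 2 of 33 muscle genes, with signal values of 418 and 228. Dfd was 1 of 8 Hox genes, ph-d 1 of 28 Polycomb and trithorax genes, CycB 1 of 19 cell cycle and growth genes, and RpS23, with 2 peaks of 151 and 137, 1 of 92 cytosolic ribosomal protein genes. None of the 21 nuclear receptor genes, 19 insulator and promoter factor genes or 35 spindle and kinetochore genes was nearest to a distal intergenic peak. These lists were nearest to 0.154%, 0% and 0.0385% of the background. As 1.36% of all genes were nearest to a peak, a count of 0 in lists of this size says little. The median signal value was 133 over all 264 peaks, 115 for the segmentation list, 112 for signalling and 163 for neuronal and glial differentiation, and no test was made of these small lists.

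Sequence composition and the summit position bear on all motif shares. The median GC content within 100 bp of the summit was 38.8% in the peaks, 40.8% in promoter peaks, 40.3% in intronic peaks and 44.8% in the background. Peaks with and without a core had the same median of 38.8%, and within the interquartile GC band of the peaks the odds ratio of the core was 10.7. The summit was the middle of the interval, within 1 bp, for 71.6% of the peaks and 100% of the background. Of the 264 peaks, 2 had their summit in an annotated transposable element, and 1, near ey, had over 50% of its 31-base words repeated elsewhere in the genome.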

How the data were processed

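Chromatin immunoprecipitation libraries of whole embryos (2 replicates, sonicated to 200 to 800 bp per the labels) were analysed from the lists of regions on dm6 that the authors deposited: 30000 candidates for each replicate and for the pool, and 2413 reproducible peaks. The signal value in each list is the authors' own, on a scale not stated. The summit was read from the deposited offset column, a number of bp from the interval start, of the unit recorded as other. Not given in the sources used here were the aligner and the peak caller. No column belonged to other samples.

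Transcripts came from Ensembl release 115 on 7 main chromosomes, with transposable elements left out of the TSS set, and sequence from Release 6 of the genome, read with Python 3.11.15, numpy 2.4.6, scipy 1.17.1 and matplotlib 3.10.9. Motifs were searched on both strands within 100 bp of the summit and words of 6 bases within 50 bp. As background, the weaker 50% of pooled candidates was used after removing any that touched a reproducible peak (14890 left, of which 2599 meet the same intergenic rule). Regions were matched between lists within 200 bp of the summit. Shares were compared by two-sided Fisher's exact tests with Benjamini-Hochberg adjustment over motifs, words, arms or orientations, at a threshold of 0.05, with 95% Wilson intervals for shares and 95% Woolf intervals for odds ratios. The motif and word tests were tried on simulated sequences with a planted motif or word. Both simulated sets had the same GC content, unlike the peaks and the background. The tests of location, neighbours, orientation and replicates were not simulated.

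The rule for named genes took the 25 strongest peaks with the nearest gene, the 5 most remote, 5 on each side of the distance limit, up to 6 per gene list, groups of 3 or more, every motif and the 10 words of smallest p. The peaks, lists and motifs were chosen with earlier results of these data known. Of the symbols in the 11 gene lists, 20 were not found and were left out. The main comparisons were repeated, where the alternative applied, on each replicate alone, with other distance limits, backgrounds and windows, and on the stronger peaks. The middle letters of the core, the core by replicate, the splits by distance and the gene lists were not repeated.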

Additional observations from a re-analysis of the deposited data

How the results depend on the processing

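The nearness to a TSS (odds ratios 3.19 to 4.24 over 7 alternatives) and to another peak (2.81 to 4.70 over 7), the CTCF core against the background (4.34 to 24.1 over 13) and against promoter peaks (2.48 to 3.99 over 5) kept their direction and call, and no chromosome arm passed in any of 6. The 13 were not all distinct, since regions beyond 1000 bp of a TSS entered under a planned and an added setting. Against intronic peaks the core missed the threshold in the stronger 50% of the list (odds ratio 2.62, adjusted exact p = 0.0564). The share in the top of both replicates turned against promoter peaks with matches within 50 bp (odds ratio 1.01), and passed against intronic peaks in the stronger 50% (0.503).

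The upstream share lost its call beyond 500 bp (odds ratio 1.03) and in the stronger 50% (1.23), and turned beyond 1000 bp (0.823). The divergent share passed with a lower-ranked background (1.38), and the convergent share passed with it (0.645, adjusted exact p = 0.0338) and without replicate 2 (0.560), and turned beyond 1000 bp (1.03). Motifs called against the background, 5 in the report, numbered 1 to 3 with 1 replicate, 3 beyond 500 bp, 2 in the stronger 50%, 2 and 9 with windows of 50 and 200 bp, 2 against flanking sequence, 1 in the GC band, and, in alternatives added after seeing the data, 1 for peaks in the top of both replicates and 1 within 1000 bp of a TSS. Against promoter peaks there were 5 to 8 with 1 replicate. Against intronic peaks, also 5 in the report, there were 3 to 4 with 1 replicate, 3 beyond 500 bp, 3 beyond 1000 bp and 1 in the stronger 50%. Words, 49 in the report, numbered 28 beyond 500 bp, 11 beyond 1000 bp, 6 in the stronger 50%, 5 against the middle of the flanking sequence, 9 in the GC band, 235 with windows of 100 bp, and, added later, 2 for peaks in the top of both replicates and 15 without core matches. Fewer regions were tested in several of these; the cause was not tested otherwise. Against the background, 2 or more cores gave odds ratios of 3.90 to 55.8, and no finite odds ratio where no background region held 2. No paired analysis between samples was possible because there was 1 group. The flanking sequence came from the same peaks as the summit windows, and its comparison did not use that pairing. The lists gave no read depth, so shares rest on the number of peaks alone.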
